A study of Rattus norvegicus with 138 samples.

Results

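The dystrophin glycoprotein complex was followed in injured, contralateral and control rat tibialis anterior (TA) muscle through the transcripts of 8 genes: Dmd, Dag1, Sgca, Sgcb, Sgcd, Sntb1, Dtna and Sspn. They were chosen by name, as the rows of a table of 16181 gene symbols, and 7 of the 8 had a row. Dtna had none and has no value here. After volumetric muscle loss (VML) injury the 7 transcripts did not move as a unit. Against control, Sgcb was the lowest of the 7 in injured muscle at 7 days post injury (DPI). With all control muscles, Dmd was the highest at 7, 14 and 28 DPI. Without the control muscle lowest in Dmd its differences shrank, and at 7 DPI Dag1 was slightly higher. Against contralateral muscle Dmd did not pass the test at 14 and 28 DPI. No member passed the test for the minced graft or for running.

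The complex links the actin cytoskeleton of the muscle fiber, through the sarcolemma, to laminin in the basement membrane. Dystrophin (Dmd) binds actin inside the fiber, dystroglycan (Dag1) crosses the membrane and binds laminin outside, and the sarcoglycans (Sgca, Sgcb, Sgcd) with sarcospan (Sspn) form a subcomplex in the membrane. Syntrophins such as Sntb1 and dystrobrevins such as Dtna attach to dystrophin on the inside and carry signaling proteins. Loss of dystrophin causes Duchenne and Becker muscular dystrophy, and loss of a sarcoglycan causes a form of limb-girdle muscular dystrophy.

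All rats were Lewis rats, adult males by the study's methods, and the labels name no altered gene. The methods also mention a few rats that carry green fluorescent protein (GFP), which the labels do not mark. VML was made by removing a plug of the middle of the TA of one leg with a biopsy punch. Injured muscles were left without repair or filled with a minced muscle graft (MMG), which the study's methods describe as small pieces of the rat's own excised muscle. The TA of the other leg is the contralateral muscle. Control muscle was the left and right TA of 2 rats at day 0, which the labels call Sham and the study's text calls unoperated. Some rats are also labelled as running, with no further detail. Muscles were taken at 3, 7, 14 and 28 DPI. Among rats that were not running, the groups held 4 control muscles, 3, 8, 4 and 4 injured muscles without repair at the 4 times, 2, 4, 2 and 2 contralateral muscles of those rats, and 7, 8, 4 and 4 grafted injured muscles. Running rats without repair gave 8, 4, 4 and 2 injured muscles. Each injured muscle is 1 rat, so the spread between muscles is a spread between animals, except that the 4 control muscles came from 2 rats.

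Values are in TPM, a transcript's share of its library after division by transcript length, so levels can be compared between genes and the read depth behind a value is unknown. Libraries with fewer than 7000 symbols above 1 TPM were left out, which removed 13 libraries and left 114 muscles of 78 rats in 31 groups. In the libraries kept, 7866 to 8914 symbols were above 1 TPM in control muscle, 8535 to 9736 in contralateral muscle and 9899 to 10948 in injured muscle. The right TA of control rat 038 stood apart at 7866, against 8760 to 8914 in the other 3 control muscles, and it held the lowest control value of every member but Sgca. Comparisons with control that passed the adjusted p or were called with it and not without it, or the reverse, are therefore given both ways. TPM is a share of the library, and the median gene was itself higher in injured than in control muscle, by 0.96, 0.91, 0.53 and 0.52 on the log2 scale at 3, 7, 14 and 28 DPI. Dividing each library by a size factor (the median ratio of its genes to their mean over libraries) brought that shift to 0.09, 0.08, 0.02 and 0.04, and values on that scale are named as such. Without the right TA of rat 038 the median gene was 0.83, 0.78, 0.39 and 0.38 higher than control, and the median of the members -0.51, 0.05, 0.16 and 0.33. In bulk muscle, fewer fibers and less RNA per fiber cannot be told apart.

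The starts of Dmd and Sgcb are shown because these transcripts lay at opposite ends of the members at 7 DPI, and that of Sgca as the other sarcoglycan that was lower then. Of the 8 members, 6 have an entry in the RefSeq promoter table of the rat build GRCr8. The runs are the 250 bases directly before an annotated start, 5′ to 3′ on the gene's strand: for Dmd the first of its 3 starts, at chrX:51205836-51206085 on the plus strand, for Sgca chr10:80416076-80416325 on the minus strand, and for Sgcb chr14:34917413-34917662 on the plus strand. Capitals mark CAGCTG, a sequence of the E-box kind that myogenic factors can bind, which reads the same on both strands.
Dmd: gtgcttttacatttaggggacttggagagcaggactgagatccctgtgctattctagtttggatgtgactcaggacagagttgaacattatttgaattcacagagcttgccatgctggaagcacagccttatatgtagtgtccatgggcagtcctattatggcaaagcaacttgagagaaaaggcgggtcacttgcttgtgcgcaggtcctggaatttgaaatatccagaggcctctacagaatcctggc
Sgca: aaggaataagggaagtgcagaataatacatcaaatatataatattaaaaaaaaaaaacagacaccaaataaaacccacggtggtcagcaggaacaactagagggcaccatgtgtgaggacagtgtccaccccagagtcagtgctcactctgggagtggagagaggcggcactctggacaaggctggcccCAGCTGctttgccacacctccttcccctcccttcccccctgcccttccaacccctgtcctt
Sgcb: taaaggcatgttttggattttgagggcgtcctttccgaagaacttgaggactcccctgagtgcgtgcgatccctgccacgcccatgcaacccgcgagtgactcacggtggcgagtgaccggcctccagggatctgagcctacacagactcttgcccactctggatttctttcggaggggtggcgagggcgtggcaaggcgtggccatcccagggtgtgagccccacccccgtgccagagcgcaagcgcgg
Sgca held 1 match and the Dmd and Sgcb windows none, and 12% of all 33465 windows of this length held at least 1. The sequence CATTCC, searched on both strands, was in none of the 3 windows and in 12.1% of all windows. G and C made up 46.8% of the Dmd window, 50.8% of the Sgca window and 62.8% of the Sgcb window, with a median of 51.2% over all windows. The windows of the later Dmd starts, which are not shown, held 59.6% and 62.0%. The build differs from build 6.0, which the study used, and the TPM values do not say which start was used.

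In control muscle the members spanned a wide range of TPM. Sgca had the highest mean level, 185 ± 16.2 TPM (SD, n = 4, as for the other 6), which placed it 507th of the 16181 symbols. Sgcb followed at 143.02 ± 34.8 TPM, Dag1 at 74.02 ± 12.4 TPM and Sspn at 36.4 ± 10.7 TPM. Dmd had 25.2 ± 11.4 TPM, Sgcd 16.6 ± 3.89 TPM and Sntb1 11.9 ± 6.33 TPM. Neighbors in this order overlapped between muscles except Sgcb with Dag1 and Dag1 with Sspn. Over all 31 groups the mean level of Sgcb varied most, 3.38-fold between its lowest and highest group, and that of Dag1 least, 1.69-fold.

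**Figure D1:**
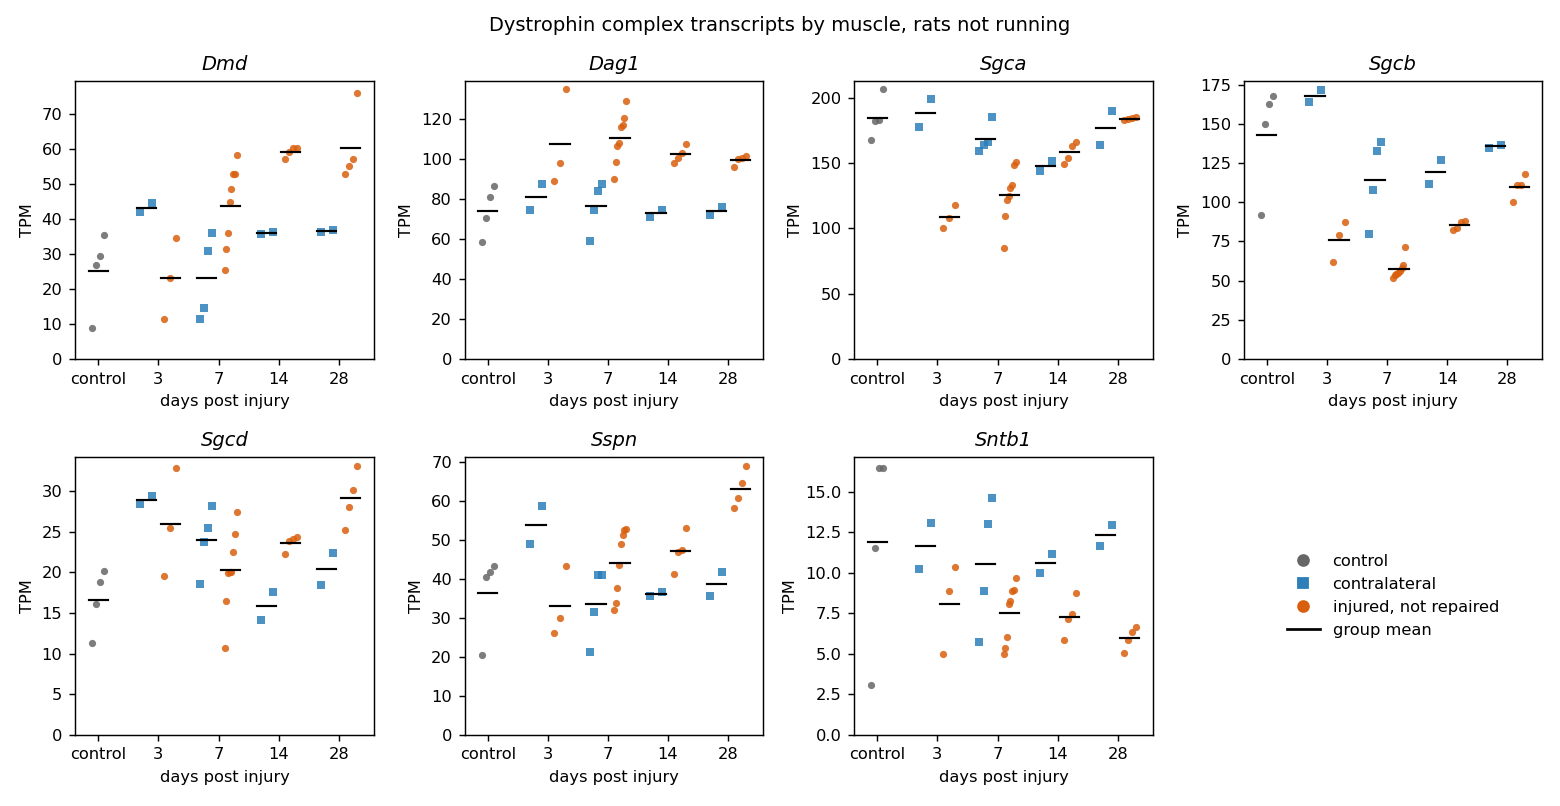
TPM of each member (vertical axis, one panel a gene, from 0) in every control, contralateral and injured muscle of rats not running and not repaired, by days post injury (horizontal axis). Each symbol is 1 muscle and each bar a group mean; the low control symbol in most panels is the right TA of rat 038, and injured Sgcb lies lowest at 7 DPI while injured Dmd lies above all control and contralateral muscles at 14 and 28 DPI.

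Dmd encodes dystrophin, and gene-level values sum its long muscle isoform and its short isoforms, which cannot be told apart here. The 4 control muscles held 26.8, 35.5, 29.4 and 9.0 TPM, the last in the right TA of rat 038. Injured muscles held 11.5, 34.7 and 23.2 TPM at 3 DPI, and between 25.4 and 58.3 TPM with a median of 46.8 at 7 DPI. At 14 DPI they held 59.2, 60.3, 60.3 and 57.3 TPM, and at 28 DPI 52.9, 55.4, 76.2 and 57.4 TPM. All 8 of these later values lie above every control value, as was found for 58.9% and 60.2% of all 11328 genes tested at 14 and 28 DPI. Contralateral muscles held 42.1 and 44.6 TPM at 3 DPI, 35.8 and 36.2 TPM at 14 DPI and 36.5 and 36.9 TPM at 28 DPI, so the injured muscles were below them at 3 DPI and above them at 14 and 28 DPI with no overlap. Of all genes, 18.8% lay wholly below contralateral muscle at 3 DPI, and 73.1% and 67.4% wholly above it at 14 and 28 DPI. At 7 DPI the 4 contralateral muscles spread from 11.3 to 36.0 TPM and overlapped the injured ones.

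Against control, Dmd rose by 1.36 on the log2(TPM + 1) scale at 14 DPI (SE 0.28, adjusted p = 1.2e-05) and by 1.37 at 28 DPI (SE 0.28, adjusted p = 1.14e-05), in limma with Benjamini-Hochberg adjustment over 11328 genes. Both differences were past the threshold for a call (adjusted p under 0.05 and a log2 fold change beyond 1). Without the right TA of rat 038 they were 0.94 and 0.96 (adjusted p = 0.00223 and 0.0022), under the fold threshold, so the calls rest on that muscle. With size factors they were 0.69 and 0.72. At 3 DPI the difference was -0.09 (adjusted p = 0.778), -0.51 without that muscle (adjusted p = 0.107) and -1.19 with size factors, a call. At 7 DPI Dmd differed from control by 0.88 (adjusted p = 5.37e-04) on the TPM scale, 0.47 without that muscle (adjusted p = 0.0699) and -0.17 with size factors, and the first was a call without the right TA of rat 037 (1.09) or the left TA of rat 038 (1.002). Against contralateral muscle Dmd fell by 1.00 on the log2 scale at 3 DPI (SE 0.36, adjusted p = 0.00971), a call that was lost when the injured (-0.59) or contralateral (-0.96) muscle of rat 010 was left out, and with grafted and running rats averaged in (-0.95), where Sgca was called instead (-1.05). It was 0.99 higher at 7 DPI (adjusted p = 1.13e-04), 0.70 at 14 DPI (adjusted p = 0.0621) and 0.69 at 28 DPI (adjusted p = 0.0807), where 2 contralateral muscles stood against 4 injured. The difference at 7 DPI passed the fold threshold without any one of 5 muscles (1.02 to 1.24), among them injured rats 011, 019 and 020, and was 1.67 with all labelled libraries kept. With size factors the differences from contralateral muscle were -1.56, a call, and then -0.07 (adjusted p = 0.778), 0.06 and 0.23, so the gain at 7 DPI was found on the TPM scale alone.

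Dag1, the dystroglycan precursor that is cut into the laminin-binding alpha and the membrane-spanning beta subunit, had the smallest span of group means. The control muscles held 86.5, 80.9, 70.4 and 58.3 TPM. Injured muscles held 89.2, 135.1 and 98.1 TPM at 3 DPI, 89.9 to 128.7 TPM (median 112) at 7 DPI, 97.8 to 107.6 TPM at 14 DPI and 95.8 to 101.6 TPM at 28 DPI. Every injured value was above every control and every contralateral value of its day. The same held against control for 69.9%, 66.0%, 58.9% and 60.2% of all genes at the 4 times, and against contralateral muscle for 59.7%, 67.0%, 73.1% and 67.4%. The log2 fold change against control was 0.52, 0.58, 0.48 and 0.44 at the 4 times (adjusted p between 1.36e-06 and 0.00167), and against contralateral muscle 0.38, 0.54, 0.49 and 0.42 (adjusted p between 6.21e-06 and 0.0319). No value passed the fold threshold, and the direction depended on the scale: with size factors the differences from control were -0.61, -0.50, -0.21 and -0.23, and those from contralateral muscle -0.19, -0.55, -0.17 and -0.05.

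The sarcoglycans went different ways. Sgca encodes alpha-sarcoglycan, which is made in striated muscle. Its control muscles held 168, 182, 183 and 207 TPM and its injured muscles 100.04, 118.2 and 108.1 TPM at 3 DPI and 85.2 to 150.7 TPM (median 127.6) at 7 DPI, below every control muscle on both days. At 14 DPI the 4 injured muscles, at 149.5 to 166.1 TPM, were also below every control muscle. On these 3 days 7.55%, 4.57% and 5.43% of all genes lay wholly below control. By 28 DPI they, at 183 to 185 TPM, lay inside the control range. The log2 fold change was -0.76 at 3 DPI (adjusted p = 6.35e-05), -0.57 at 7 DPI (adjusted p = 1.56e-04), -0.22 at 14 DPI (adjusted p = 0.216) and 0.00 at 28 DPI (95% confidence interval -0.33 to 0.32). Against contralateral muscle the differences were -0.79, -0.44, 0.10 and 0.06. With size factors Sgca was called lower than control at 3 DPI (-1.90) and 7 DPI (-1.66), and lower than contralateral muscle at the same times (-1.36 and -1.53).

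Sgcb encodes beta-sarcoglycan, which is present in muscle and in other tissues, and its transcript was the most reduced member against control at 3 and 7 DPI. The control muscles held 168, 163, 150 and 92.0 TPM. Injured muscles held 61.9, 87.3 and 79.2 TPM at 3 DPI, 51.6 to 71.4 TPM (median 55.6) at 7 DPI, 83.4, 87.6, 88.2 and 82.02 TPM at 14 DPI, and 111, 111, 100.1 and 118 TPM at 28 DPI. They lay below all control and contralateral muscles through 14 DPI and below the 2 contralateral muscles (134.5 and 136.6 TPM) at 28 DPI. Of all genes, the 7.55%, 4.57% and 5.43% given for Sgca lay wholly below control at 3, 7 and 14 DPI, and 18.8%, 4.48%, 7.81% and 8.16% wholly below contralateral muscle at the 4 times. Against control Sgcb fell by 1.27 on the log2 scale at 7 DPI (SE 0.13, adjusted p = 1.2e-14), and this call held without the right TA of rat 038 (-1.47) and with size factors (-2.35). At 3 DPI the difference was -0.88 (adjusted p = 1.67e-06) and became a call (-1.08) without that muscle. It was -0.70 at 14 DPI (adjusted p = 4.35e-05) and -0.34 at 28 DPI (adjusted p = 0.0425), where without that muscle it was -0.54 (adjusted p = 0.00248). Against contralateral muscle Sgcb fell by 1.14 at 3 DPI (SE 0.20, adjusted p = 4.34e-07) and was 0.96 lower at 7 DPI (adjusted p = 4.79e-10). The latter became a call without the contralateral muscle lowest in Sgcb (79.4 TPM; -1.12) or the injured muscle highest in it (71.4 TPM; -1.001). With size factors it was called lower than control on all 4 days (-2.02, -2.35, -1.39 and -1.02), and lower than contralateral muscle at 3, 7 and 14 DPI (-1.71, -2.04 and -1.14).

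Sgcd encodes delta-sarcoglycan, which pairs with beta-sarcoglycan in the core of the subcomplex, yet its level did not follow that of Sgcb. Control muscles held 20.2, 18.8, 16.1 and 11.3 TPM, and injured muscles 19.5, 32.8 and 25.5 TPM at 3 DPI, 10.7 to 27.5 TPM (median 20.1) at 7 DPI, 22.2 to 24.4 TPM at 14 DPI and 25.2 to 33.1 TPM at 28 DPI. The injured muscles of 14 and 28 DPI all lay above the control muscles, as for 58.9% and 60.2% of all genes. Differences from control were 0.62 (adjusted p = 0.00651), 0.26 (adjusted p = 0.147), 0.52 (adjusted p = 0.0165) and 0.80 (adjusted p = 2.63e-04) on the log2 scale, and with size factors -0.48, -0.78, -0.14 and 0.16. Without the right TA of rat 038 those at 3 and 14 DPI no longer passed (0.45 and 0.36, adjusted p = 0.0563 and 0.133), and that at 28 DPI was 0.64 (adjusted p = 0.00691). Contralateral Sgcd was itself 0.80 above control at 3 DPI (adjusted p = 0.00534), and the injured muscles of that day did not pass against it (-0.18, adjusted p = 0.534). With size factors Sgcd was called lower than contralateral muscle at 7 DPI (-1.31).

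Sspn encodes sarcospan, a membrane protein that sits with the sarcoglycans. Control muscles held 40.4, 41.6, 43.2 and 20.5 TPM. Injured muscles held 26.04, 43.3 and 30.0 TPM at 3 DPI, 31.9 to 52.8 TPM (median 46.2) at 7 DPI, 41.1 to 53.1 TPM at 14 DPI and 58.1 to 68.8 TPM at 28 DPI, where all 4 were above every control muscle and both contralateral muscles of that day, as was found for 60.2% and 67.4% of all genes. The difference from control was 0.83 at 28 DPI (SE 0.20, adjusted p = 1.6e-04), 0.58 without the right TA of rat 038 (adjusted p = 0.011) and 0.17 with size factors. Against contralateral muscle Sspn was 0.71 lower at 3 DPI (adjusted p = 0.0107) and 0.70 higher at 28 DPI (adjusted p = 0.0139), so its direction turned between the 2 times as that of Dmd did. With size factors the first was a call (-1.27) and the second 0.23. Over the means of the 31 groups Sspn and Dmd had a Pearson r of 0.86, the highest of the 21 pairs of members, as a description of groups that share libraries and controls.

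Sntb1 encodes beta-1-syntrophin, an adaptor that binds dystrophin and dystrobrevin. It was the lowest member and, relative to its mean, the one most spread among control muscles, at 16.5, 16.5, 11.5 and 3.06 TPM. Injured muscles held 4.96, 10.4 and 8.88 TPM at 3 DPI, 5.0 to 9.71 TPM (median 8.17) at 7 DPI, 5.87 to 8.73 TPM at 14 DPI and at most 6.64 TPM at 28 DPI. They overlapped the control muscles on every day through the one low control value. The differences from control at 3, 7 and 14 DPI were -0.35, -0.42 and -0.44 (adjusted p = 0.235, 0.076 and 0.123), and those from contralateral muscle -0.53, -0.39 and -0.49. The difference at 28 DPI was -0.68 against control (adjusted p = 0.0158) and -0.94 against contralateral muscle (adjusted p = 0.0119), where the injured muscles lay below both contralateral ones (11.6 and 12.98 TPM), as for 8.16% of all genes. Without the right TA of rat 038 the differences from control were -0.84, -0.90, -0.92 and -1.17 on the 4 days (adjusted p between 3.64e-05 and 0.00278), the last a call, and with size factors all 4 were calls (-1.37, -1.38, -1.06 and -1.29), as were those from contralateral muscle (-1.04, -1.38, -1.11 and -1.39).

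**Figure D2:**
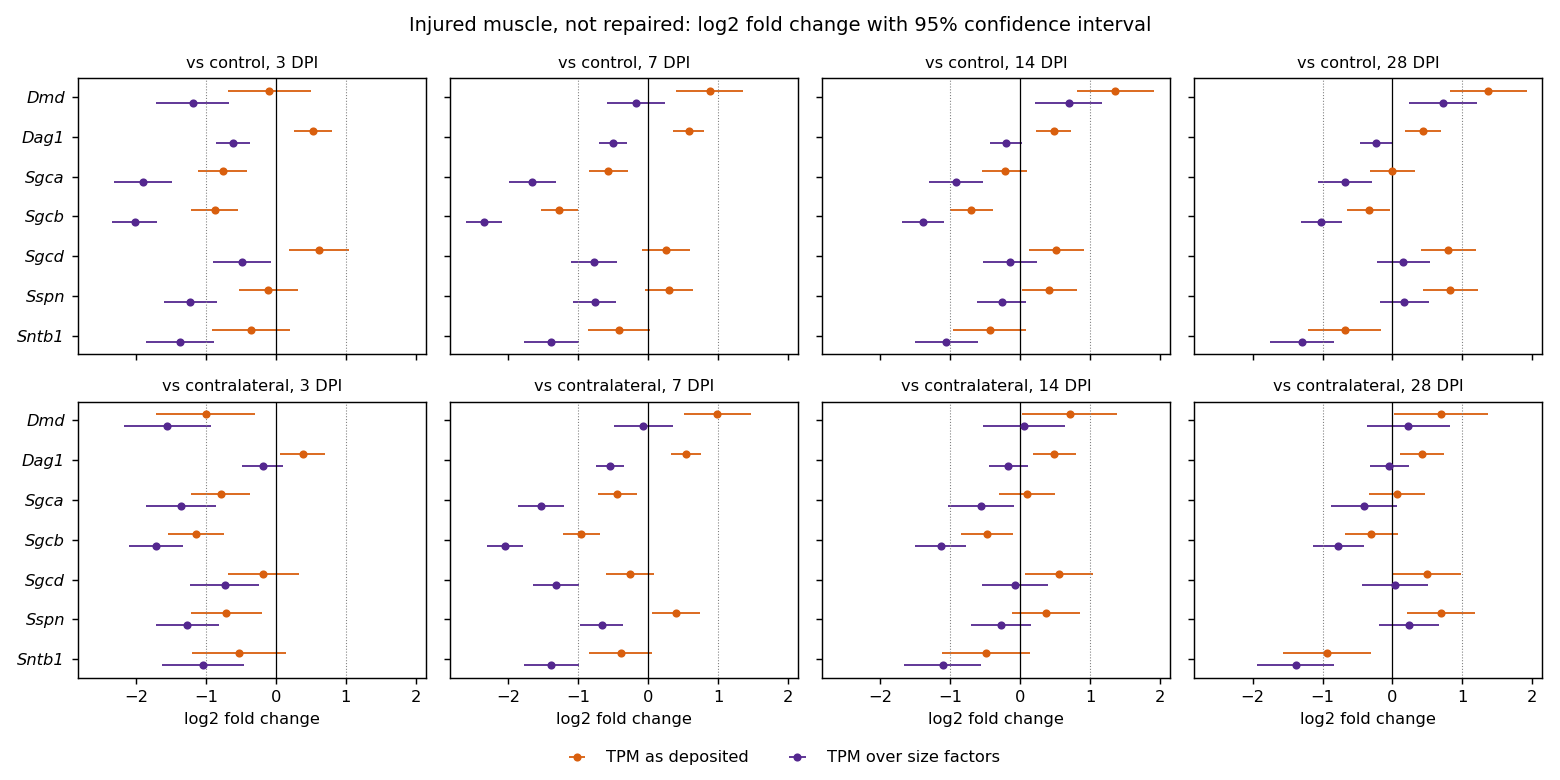
Log2 fold change (horizontal axis, log2(TPM + 1)) of each member in injured muscle without repair, against control (upper row) and against contralateral muscle (lower row) at each time, with 95% confidence intervals; orange is TPM as deposited and purple is TPM over size factors, and dotted lines mark -1 and 1. The purple set lies to the left of the orange set, while the order of members is alike, with Sgcb among the lowest and Dmd among the highest from 7 DPI.

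Counted over the members, calls against control on the TPM scale were 0 of 7 at 3 DPI, where 4 had an unadjusted p under 0.05 and 52.6% of all genes tested were called, 1 at 7 DPI (Sgcb, lower; 48.1% of all genes), 1 at 14 DPI (Dmd, higher; 25.5%) and 1 at 28 DPI (Dmd, higher; 21.3%). By this rule and on this scale the members' share lay below that of all genes at each time. With 7 members it rests on at most 1 call a day. By the adjusted p alone 4, 4, 4 and 6 of the 7 passed, against 85.2%, 88.2%, 72.3% and 71.8% of all genes. That share was below the one of all genes at 3, 7 and 14 DPI and above it at 28 DPI. With size factors 5, 3, 2 and 2 members were called, every one of them lower, against 41.3%, 36.1%, 21.7% and 14.7% of all genes. There the members' share lay above that of all genes at each time. Of all genes 16.8%, 14.2%, 5.9% and 3.17% were called lower on that scale. The median log2 fold change of the members was -0.11, 0.26, 0.41 and 0.44 on the TPM scale and -1.23, -0.78, -0.26 and -0.23 with size factors, below that of all genes on both scales at each time. Against contralateral muscle 2, 0, 0 and 0 members were called (Dmd and Sgcb at 3 DPI), beside 38.2%, 47.4%, 21.1% and 13.3% of all genes, and 5, 5, 4 and 5 had an unadjusted p under 0.05. By the adjusted p alone these were 5, 5, 3 and 3, beside 71.9%, 88.3%, 63.7% and 49.7%, and with size factors 5, 4, 2 and 1 were called, beside 34.2%, 31.6%, 14.3% and 8.73%.

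The makeup of the tissue moved with these values. The 17 adult myofiber markers summed to 292892 to 352886 TPM in control muscle and to 58003 to 79518 TPM in injured muscle at 3 DPI, and all 17 were called lower there. The sum was 87101 to 186522 TPM at 7 DPI and 240041 to 265686 TPM at 28 DPI, with 10 and 1 of 17 called lower. The 9 regenerating myofiber markers, of which 8 were called higher at 3 and 7 DPI, summed to 90.1 to 146 TPM in control muscle and to 2879 to 4972 TPM at 7 DPI. The 12 leukocyte markers, all called higher at 3 and 7 DPI, went from 24.6 to 48.0 TPM in control muscle to 5510 to 7906 TPM at 3 DPI, and the 8 fibroblast markers, all called higher, from 70.9 to 228 TPM to 6299 to 17944 TPM at 7 DPI. Of 6 endothelial markers 4, 5, 3 and 1 were called higher at the 4 times, and of 8 smooth muscle and pericyte markers 5, 6, 6 and 5 with 1 lower. Of 7 Schwann cell markers 6 passed the filter, of which 3, 3, 3 and 5 were called higher, and of 5 adipocyte markers 4 passed, of which 1, 1, 1 and 4 were. No marker of these lists was at 0 in a whole group. Their part in the members' values was not tested.

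Set against the adult myofiber markers of the same library, which removes the scale of the library, the members stood higher in injured than in control muscle at 3 DPI. The difference between a member's log2(TPM + 1) and the mean of the 17 markers was larger in injured than in control muscle for 7, 7, 5 and 5 of the 7 members at 3, 7, 14 and 28 DPI. In exact two-sided permutation tests over muscles, 7, 6, 4 and 5 of the 7 had a Benjamini-Hochberg adjusted p under 0.05 over 28 tests, where the smallest p the design allows is 0.0286 at 3, 14 and 28 DPI and 0.00202 at 7 DPI. Nearly all genes did the same: 99.6%, 98.7%, 94.5% and 96.7% of the 11328 tested were higher relative to the markers. Of all genes, 98.1%, 97.1%, 80.3% and 78.7% were higher and also had an unadjusted exact permutation p under 0.05, beside 7, 6, 4 and 5 of the 7 members. The members' median gains of 2.26, 1.61, 0.77 and 0.77 lay below the 3.33, 2.27, 0.89 and 0.85 of all genes. These tests take the 4 control muscles as independent. With the muscles of each control rat averaged, a choice made after the values were seen, the smallest exact permutation p is 0.1, 0.0222, 0.0667 and 0.0667. Only 7 DPI could then pass, where 5 members had an unadjusted exact permutation p under 0.05 and 0 an adjusted one. At 3 DPI the gain ran from 1.495 for Sgcb to 2.99 for Sgcd. Dmd kept a gain of 2.23 at 7 DPI and 1.70 at 28 DPI (exact permutation adjusted p = 0.0113 and 0.0364). Sgcb stood at 0.08 at 7 DPI, -0.34 at 14 DPI and -0.01 at 28 DPI (exact permutation adjusted p = 0.768, 0.167 and 1), where no difference from control was detectable. Across the 31 group means the correlation with the marker mean was 0.92 for Sgca, 0.77 for Sgcb and -0.68 for Dag1, as a description only.

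**Figure D3:**
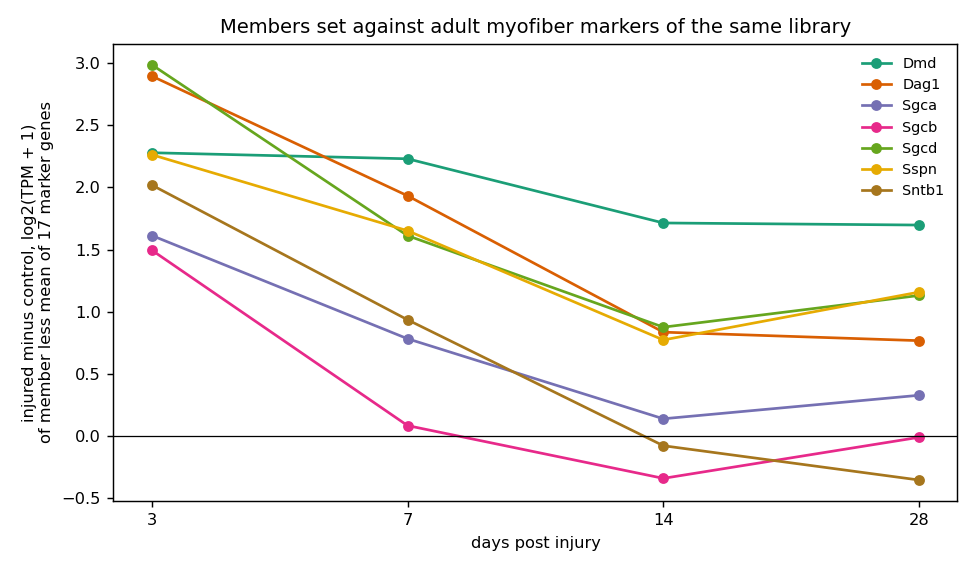
Injured minus control difference (vertical axis) of each member's log2(TPM + 1) less the mean of the 17 adult myofiber markers in the same library, at 3, 7, 14 and 28 DPI (horizontal axis). All 7 lines lie above 0 at 3 DPI, and Dmd lies highest from 7 DPI while Sgcb and Sntb1 lie near or below 0 at 14 and 28 DPI.

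Ratios of 2 members within a library do not depend on its scaling either; they were chosen after the values were seen and are given with no test. The log2 ratio of Dmd to Sgcb was -2.65, -2.20, -2.35 and -3.35 in the 4 control muscles, a mean of -2.64 ± 0.51 (SD, n = 4). In injured muscle it was -1.84 ± 0.55 at 3 DPI (n = 3), where it overlapped control and contralateral muscle, and then -0.44 ± 0.37 at 7 DPI (n = 8), -0.52 ± 0.02 at 14 DPI (n = 4) and -0.88 ± 0.32 at 28 DPI (n = 4). The lowest of the 16 muscles from 7 DPI on, at -1.14, was above the highest control and the highest contralateral muscle of the same kind of rats at the 4 times (-1.62). The ratio of Sspn to Sgcb ran from -2.17 to -1.80 in control muscle and from -0.82 to -0.10 at 7 DPI, from -1.02 to -0.73 at 14 DPI and from -0.96 to -0.54 at 28 DPI in injured muscle. The ratio of Sgcd to Sgcb ran from -3.22 to -3.02 in control muscle and from -1.66 to -1.41 in injured muscle at 3 DPI. For this ratio the contralateral muscles were intermediate at 3 and 7 DPI (-2.54 to -2.53 and -2.48 to -2.08), and at 7 DPI one injured muscle, at -2.39, fell inside their range.

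**Figure D4:**
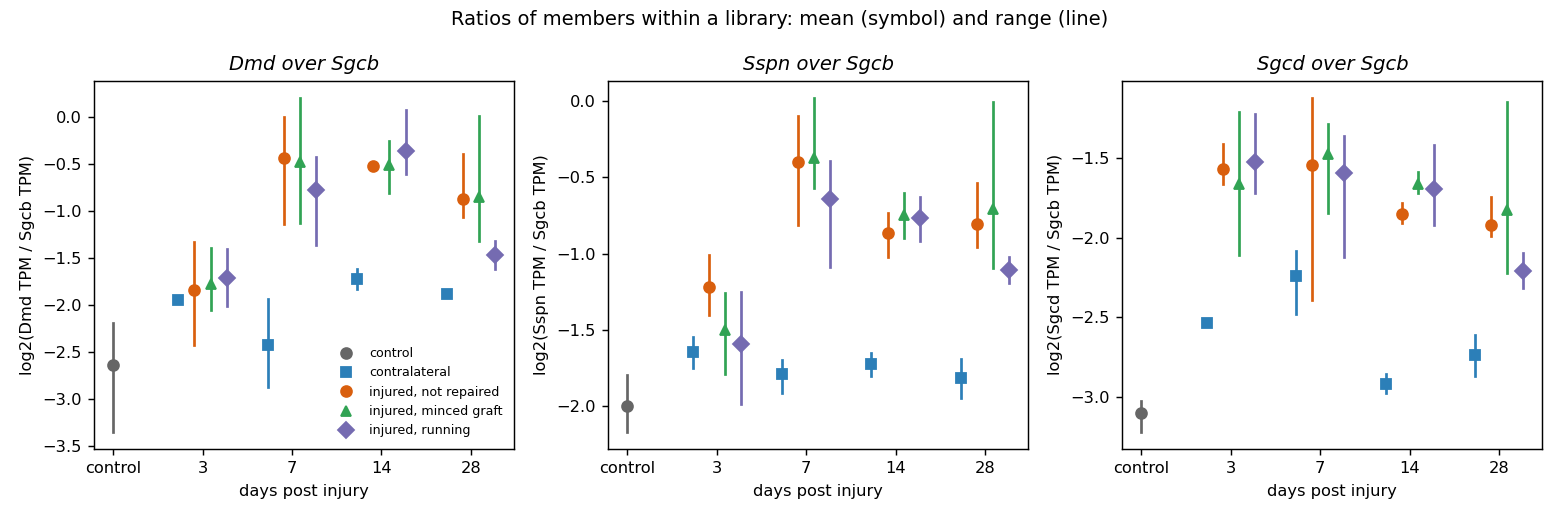
Log2 ratio of TPM within a library (vertical axis) for Dmd, Sspn and Sgcd over Sgcb, by days post injury (horizontal axis), with the group mean as a symbol and the lowest and highest muscle as the ends of a line. In the panels of Dmd and Sspn the injured groups shown lie above control and contralateral muscle from 7 DPI, with or without graft or running. At 28 DPI the mean of the 2 running muscles without repair is the lowest of the injured means shown, and grafted running muscles are not drawn.

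Other genes of the complex and the paralogs of its members, from a list of 12 of which 11 have a row and 8 passed the filter, were compared with control in the same fit. Sgce, the epsilon-sarcoglycan that resembles Sgca and is found outside muscle fibers as well, rose from 3.34 ± 1.13 TPM (n = 4) in control to 12.8 ± 3.21 TPM (n = 3) at 3 DPI and 17.5 ± 3.55 TPM (n = 8) at 7 DPI. Its log2 fold changes of 1.69, 2.12, 1.64 and 1.27 were calls on all 4 days (adjusted p at most 4.74e-09), and with size factors, at 0.74, 1.21, 1.11 and 0.76, at 7 and 14 DPI. Sntb2, a syntrophin of many tissues, rose by 1.38, 1.33 and 1.07 at 3, 7 and 14 DPI, from 0.39 ± 0.25 TPM in control to 2.72 ± 1.31 TPM at 3 DPI, and no day was a call with size factors (0.92, 0.92, 0.93 and 0.75). Dtnb, the beta-dystrobrevin related to Dtna, rose by 2.07 and 1.70 at 3 and 7 DPI, from 0.45 ± 0.06 TPM to 5.093 ± 0.59 TPM at 3 DPI, calls with size factors too (1.47 and 1.16).

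Cav3, Nos1 and Sntg1 of that list were not called on the TPM scale at any time. Cav3, the muscle caveolin, had -0.20, -0.52, 0.01 and -0.02, and Nos1, the neuronal nitric oxide synthase that the complex anchors, had -0.45, -0.10, -0.51 and -0.68. Sntg1 had 0.50, 0.59, 0.30 and 0.44 at levels near 0 (control mean 0.32 TPM). Sgcz, Sntg2 and Drp2 were below the filter. In all, 3, 3, 2 and 1 of the 8 were called higher and 1, 0, 0 and 0 lower on the TPM scale, and 1, 2, 1 and 0 higher and 4, 4, 2 and 2 lower with size factors, so for this list too the balance turned with the scale.

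Lists around the complex were described in the same way, by counts against control. Beside them, 48.3%, 45.6%, 25% and 21.1% of all genes were called higher at the 4 times and 4.24%, 2.42%, 0.547% and 0.212% lower. With size factors 24.5%, 21.9%, 15.8% and 11.5% were called higher and 16.8%, 14.2%, 5.9% and 3.17% lower. Of the extracellular ligands of dystroglycan, 7 of 9 with a row passed the filter, and 6, 6, 5 and 5 of them were called higher at the 4 times with none lower on the TPM scale. Bgn, which encodes biglycan, rose by 5.56 and 6.54 at 3 and 7 DPI, and Lama4 and Lama5, laminin chains, rose by 3.06 and 2.53 at 3 DPI. With size factors 3, 4, 3 and 3 of the 7 were called higher, 1 lower at 3 DPI. Of 17 genes that glycosylate alpha-dystroglycan, 2, 3, 1 and 0 were called higher and none lower, led by Gmppb (2.15 at 3 DPI) and Dpm2 (1.98), with medians of 0.25 at each time on the TPM scale and of -0.81, -0.79, -0.35 and -0.37 with size factors. Of 9 costamere and cytoskeletal linkers, 2 were called higher and 3 lower at 3 DPI, with Actg1 (3.19) and Krt8 (2.65) at one end and Synm (-1.67) at the other. The integrin adhesion genes, a second link of the fiber to laminin, had 7, 6, 4 and 3 of 9 called higher (Parva 3.03 and Itga7 2.87 at 3 DPI), and the membrane repair genes 7, 7, 5 and 5 of 10 (Anxa1 5.66, Anxa2 5.64 and Myof 4.67 at 3 DPI). With size factors these counts were 2, 1, 1 and 1 of 9 and 3 of 10 at each time, with 2 of the membrane repair genes lower at 3 and 7 DPI. On that scale 5 of the 17 glycosylation genes and 5 of the 9 linkers were called lower at 3 DPI.

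The genes whose group means were most like those of a member, by Pearson r of log2(TPM + 1) over the 31 groups, differed from member to member. For Dmd they were Lgr4 (0.93), Abca8a (0.92) and Cox11 (0.91), and for Sspn Nr3c2 (0.96), Cyb5r2 (0.91) and Slc25a42 (0.90). Sgca was most like Cacng1 (0.97), Mypn (0.96) and Tmod4 (0.96), and Sgcb most like Asb11 (0.98), Fech (0.98) and St3gal6 (0.97). Dag1 had RGD1310587 (0.97), Gimap4 (0.97) and Rnf115 (0.97). For Sgcd they included Ttbk2 (0.85) and Fam126b (0.84), and for Sntb1 they were Rbm20 (0.82), Fam220a (0.82) and Tuba8 (0.80). The groups share libraries and scaling, and the values are a description.

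Contralateral muscle of rats without repair was compared with control muscle. No member was called at any time (0 of 28 comparisons in limma), beside 6.43%, 0.803%, 0.715% and 0.185% of all genes, and 6 of the 28 had an unadjusted p under 0.05. The differences that passed the adjusted p, as did those of 54.1%, 7.05%, 2.65% and 0.415% of all genes at the 4 times, were at 3 DPI: Dmd 0.91 (adjusted p = 0.0201), Sgcd 0.80 (adjusted p = 0.00534) and Sspn 0.60 (adjusted p = 0.0313), in each of which the 2 contralateral muscles lay above all 4 control muscles. With size factors these were 0.37, 0.25 and 0.04 (adjusted p = 0.386, 0.463 and 0.921), and the median gene was 0.43 higher on the TPM scale at that time. The contralateral muscles of 3 DPI also held 558 to 1258 TPM of the fibroblast markers, all 8 called higher than control, and 92.7 to 236 TPM of the leukocyte markers, 10 of 12 called higher. The adult myofiber markers summed to 234651 to 270229 TPM there, below every control muscle. The part of these cells in the members' values was not tested. Without the right TA of rat 038 none of the 3 passed: Dmd was 0.50 (adjusted p = 0.244), Sgcd 0.63 (adjusted p = 0.0501) and Sspn 0.35 (adjusted p = 0.264). Sgcb at 7 DPI, at -0.31 with it (adjusted p = 0.24), then passed (-0.51, adjusted p = 0.0145). Of the 28 differences, 7 turned their sign without that muscle, none of which passed either way, among them Sntb1 at 28 DPI (0.25 to -0.24) and 14 DPI (0.05 to -0.44). Without the right TA of rat 037 or the left TA of rat 038 that of Dmd was a call (1.12 and 1.03). Dmd was also higher in both contralateral muscles than in all control muscles at 14 DPI (0.65, adjusted p = 0.368) and 28 DPI (0.68, adjusted p = 0.427), and Sgca lower at 14 DPI (-0.32, adjusted p = 0.501). With size factors these were 0.64, 0.49 and -0.35, and without the right TA of rat 038 they were 0.24, 0.26 and -0.26. With size factors no member was called at any time, beside 2.81%, 1.36%, 1.62% and 0.536% of all genes. With 2 contralateral muscles, 61.5%, 21.7% and 20.4% of all genes did not overlap control at 3, 14 and 28 DPI. All control rats carry one series of numbers and all operated rats another, so in comparisons with control the series and the operation cannot be told apart.

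From one time to the next in injured muscle, none of the 7 members was called (0 of 21 comparisons in limma, 7 with an unadjusted p under 0.05), beside 7.34%, 6.82% and 0.459% of all genes from 3 to 7, 7 to 14 and 14 to 28 DPI. Dmd was 0.97 higher at 7 than at 3 DPI (SE 0.27, adjusted p = 0.0021), just short of the fold threshold, which it passed without any one of 5 muscles (1.004 without injured rat 020 to 1.32 without injured rat 017). It was 1.02 with size factors, the 1 call of a member on that scale, beside 6.62%, 4.26% and 0.671% of all genes for the 3 steps, and 0.56 without injured rat 010. Sgcb was 0.39 lower at 7 than at 3 DPI (adjusted p = 0.0283). Between 7 and 14 DPI Sgcb was 0.57 higher (SE 0.13, adjusted p = 1.54e-04) and Sgca 0.35 higher (adjusted p = 0.0237).

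Whether the minced graft altered the members was asked in injured muscle of rats not running. No member was called at any time (0 of 28 comparisons in limma, none with an unadjusted p under 0.05), beside 0.00883%, 0.0883%, 0.0265% and 0% of all genes. The log2 differences ran from -0.36 (Sspn at 3 DPI) to 0.36 (Sntb1 at 14 DPI), and the 95% confidence intervals of all 28 lay between -0.75 and 0.88, which is the precision that these numbers of muscles give. Dmd held 20 to 59.5 TPM (median 39.9) in 8 grafted muscles at 7 DPI, against 25.4 to 58.3 TPM in 8 without repair, and 53.8 to 67.6 TPM against 57.3 to 60.3 TPM at 14 DPI. Sgcb held 43.7 to 67.0 TPM (median 55.7) at 7 DPI, against 51.6 to 71.4 TPM. In these groups the grafted and non-repaired values overlapped. At 14 DPI Dag1, Sgcd and Sntb1 were higher in all 4 grafted than in all 4 non-repaired muscles, with adjusted p between 0.73 and 0.735, and 7.92% of all genes did not overlap between these groups. The graft's difference in the injured minus contralateral contrast gave adjusted p of 0.43 and above, and 1 of the 28 had an unadjusted p under 0.05 in limma, Dmd at 7 DPI (-0.69, 95% confidence interval -1.32 to -0.05).

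Within grafted rats, injured against contralateral muscle gave calls for Sgca (-1.10), Sgcb (-1.16) and Sspn (-1.08) at 3 DPI and for Sgcb (-1.23) at 7 DPI, all lower, which is 3, 1, 0 and 0 of 7 beside 44%, 46.2%, 26.1% and 19.1% of all genes. At 3 DPI the calls of Sgca and Sspn were lost without injured rat 009 (-0.95 and -0.97), and that of Sgca also without contralateral rat 013 (-0.98). At 14 and 28 DPI 5 and 4 members had an unadjusted p under 0.05, a line for which the share of all genes was not counted. In the same contrast without repair 63.7% and 49.7% of all genes passed the adjusted p on those days. Among the members under that line in grafted rats were Dmd at 0.83 and 0.89 (adjusted p = 0.0261 and 0.0187) and Sspn at 0.82 on day 28 (adjusted p = 0.0027). With size factors these were 0.13, 0.31 and 0.23, and none passed. The Dmd difference at 28 DPI was a call without contralateral rat 076 (1.02) or injured rat 083 (1.0004). With size factors 4, 4, 2 and 1 of the 7 members were called, all lower, beside 37.5%, 34.9%, 19.5% and 13% of all genes, and Dmd was one of them at 3 DPI (-1.40).

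Running was compared with no running in injured muscle without repair. No member was called (0 of 28 comparisons in limma), beside 0.0441%, 0%, 0.0177% and 0.0177% of all genes, and 4 of the 28 had an unadjusted p under 0.05. These were Sgca at 3 and 7 DPI (-0.42 and -0.38, adjusted p = 0.204 and 0.146), Sspn at 3 DPI (-0.41, adjusted p = 0.304) and Sntb1 at 14 DPI (0.53, adjusted p = 0.486). The 95% confidence intervals of all 28 lay between -0.999 and 1.05. At 28 DPI the 2 running muscles held 131.9 and 131.4 TPM of Sgcb, above all 4 non-running ones at 100.1 to 118 TPM, and 43.0 and 52.6 TPM of Dmd, below all 4 at 52.9 to 76.2 TPM, and neither passed (log2 differences of 0.26 and -0.33, adjusted p = 1). Both running muscles were also above the non-running ones in Sntb1 (6.92 and 7.68 TPM against at most 6.64 TPM, adjusted p = 1), and 22.8% of all genes did not overlap between groups of this size. At 14 DPI Sgcb lay the other way, at 72.2 to 81.9 TPM in the 4 running muscles, below the 82.02 to 88.2 TPM of the others (-0.14, adjusted p = 0.742), where 5.74% of all genes did not overlap. Within running rats, injured against contralateral muscle gave 2, 1 and 0 calls of 7 at 3, 7 and 14 DPI, beside 40.1%, 43.1% and 26.3% of all genes: Sgca (-1.17) and Sgcb (-1.13) at 3 DPI and Sgcb (-1.23) at 7 DPI. At 3 DPI Sspn became a call without contralateral rat 002 (-1.12) or injured rat 097 or 098 (-1.02 each), and at 7 DPI Sntb1 without injured rat 003 (-1.0004). With size factors 5, 4 and 2 of the 7 members were called, all lower, beside 36.8%, 34.4% and 18.6% of all genes. At 14 DPI 4 members had an unadjusted p under 0.05, a line for which the share of all genes was not counted. The difference that running made to the injured minus contralateral contrast had adjusted p of 0.617 and above for every member at 3, 7 and 14 DPI.

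**Figure D5:**
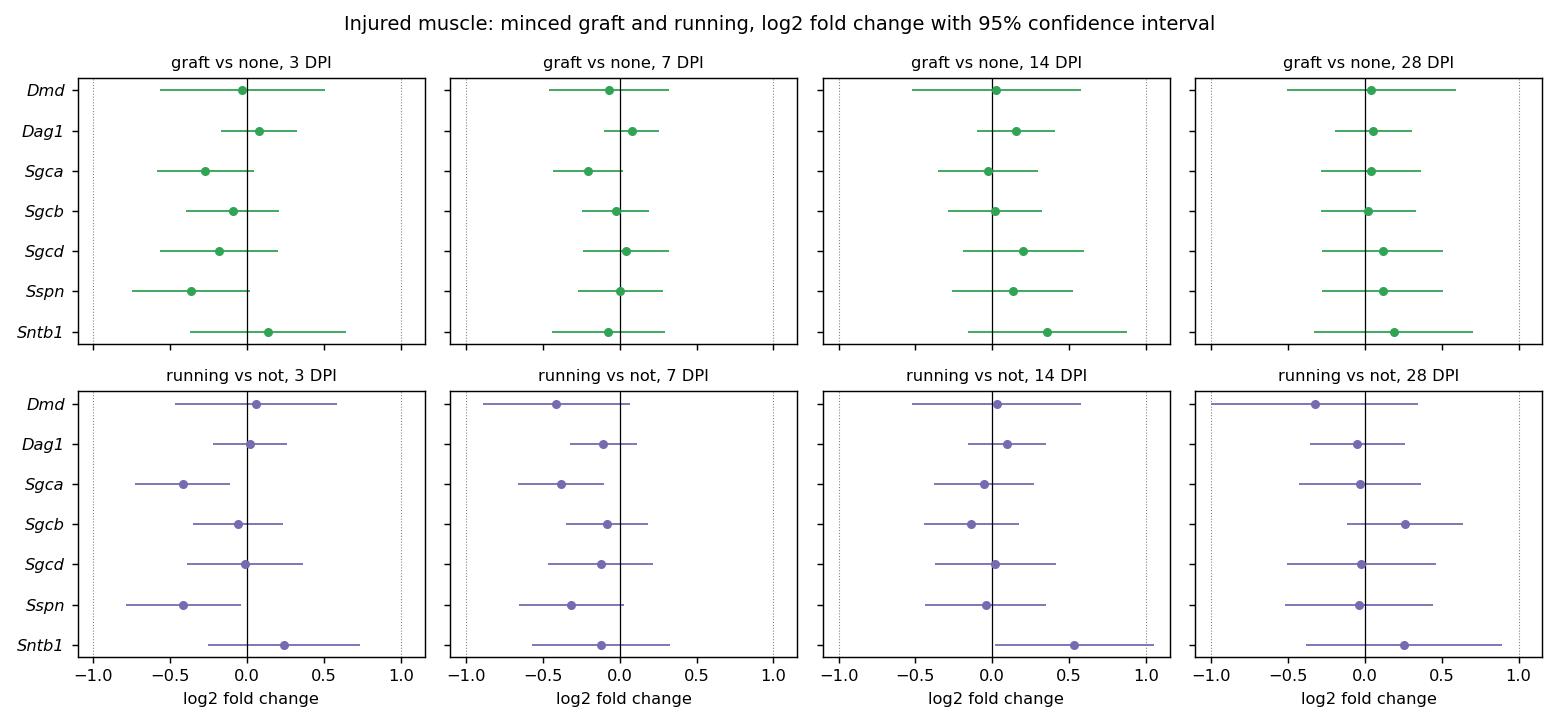
Log2 fold change (horizontal axis, log2(TPM + 1)) of each member in injured muscle, for minced graft against no repair (upper row) and running against no running (lower row), at each time, with 95% confidence intervals and dotted lines at -1 and 1. All points lie between -0.42 and 0.53.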

How the data were processed

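RNA-Seq reads of rat TA muscle were quantified by the authors with Kallisto against rat build 6.0, and the deposited table gives TPM per gene symbol. Groups follow the sample labels, and 9 libraries whose labels conflict were unassigned. Repeat libraries of 2 muscles were averaged. Genes above 1 TPM in the mean of at least 1 group entered limma 3.58.1 (R 4.3.3): log2(TPM + 1) values, empirical Bayes with a trend, 31 groups and 83 residual degrees of freedom. Counts were not used here, so the count model of the study was not run. In data simulated for injured against control at 7 DPI (10833 genes), 96% of 100 genes changed by 1.5 and 99% of 100 changed by 2 (log2) were called, and 0 of 10633 unchanged genes. The simulated noise was independent between muscles, with few genes changed, no shift of the median gene and no low control muscle. The simulation therefore cannot test calls that turn with the scale or with that muscle. Of 32 planned relative tests, 28 were run because Dtna has no row.

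Both muscles of 36 rats entered, 2 of them control rats, a pairing given by the animal. Deviations from group means correlated at 0.0722 on average in 36 same-rat pairs and at -0.00871 between rats. The rat as a replicate block (statmod 1.5.0) changed no call of a member.

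The members and lists were chosen with earlier results of these data known. Named genes were the members, the other complex genes, those of each list with the largest changes, and the 3 most like each member, of which a few are not reported here. Within-library ratios and the running interaction were added after values were seen. Alternatives were another pseudocount, no filter, size factors, all labelled libraries, single libraries, non-running groups alone, no trend, the rat number range, control muscles averaged per rat, all arms averaged, the adjusted p alone, and each muscle left out in turn.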

Additional observations from a re-analysis of the deposited data

Results flagged for a closer look

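In 112 combinations of a member and a group of 4 to 10 muscles, 8 held a muscle far from the others by Dixon's criterion, which chance gives in about 1 of 20. Rat 023, grafted, at 7 DPI (n = 8) was lowest in 3 members: Dmd 20 TPM against 35.8 to 59.5 in the others, Sgcd 12.18 TPM against 18.8 to 25.5, and Sntb1 3.55 TPM against 6.51 to 9.69. Rat 031, running, at 7 DPI (n = 4) was lowest in Sgca, 55.27 TPM against 109.3 to 120.2, and in Sgcd, 11.07 TPM against 20.4 to 21.5. Sgcb was low in grafted rat 076 at 28 DPI (90.66 TPM, n = 4) and high in 1 non-repaired rat at 7 DPI (71.35 TPM against 51.6 to 59.8, n = 8). Sspn was low in the right TA of control rat 038 (20.47 TPM against 40.4 to 43.2 in the other 3).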

How the results depend on the processing

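Counts of called members moved most with the call rule and the scaling. Against control they were 0, 1, 1 and 1 at 3, 7, 14 and 28 DPI, 4, 4, 4 and 6 by the adjusted p alone and 5, 3, 2 and 2 with size factors. Against contralateral muscle they were 2, 0, 0 and 0, 5, 5, 3 and 3 by the adjusted p alone, and 5, 4, 2 and 1 with size factors. With all labelled libraries kept the count against contralateral muscle was 0 at 3 DPI and 1 at 7 DPI. A pseudocount of 0.1 TPM gave 1 at 7 DPI and 1 at 28 DPI, and the rat number range and the average of all arms gave 1 each at 7 DPI. The latter gave 2 at 3 DPI, with Sgca in place of Dmd. For contralateral against control (0 in all) the adjusted p alone gave 3 and all libraries 3. In grafted rats (4) these gave 19 and 1, and size factors 11. In running rats (3) they gave 13 and 0, size factors 11 and the number range 5. Through time (0) the adjusted p alone gave 4, and the pseudocount and size factors 1 each. The cause was not tested. No called difference turned its direction.

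Leaving out 1 muscle at a time gave 0 to 1, 1 to 2, 0 to 1 and 1 calls against control, 1 to 2, 0 to 1, 0 and 0 against contralateral muscle, 0 to 1 for contralateral against control, 2 to 5 in grafted rats, 3 to 4 in running rats, 0 to 1 through time and 0 for graft and for running. Relative to the adult markers, 0 to 7, 5 to 6, 0 to 4 and 0 to 5 members were below 0.05, where with a muscle less the smallest exact permutation p can miss the threshold. With control muscles averaged per rat, chosen after the data were seen, the count was 0 on each day. The rat as a replicate block left the counts at 0, 1, 1 and 1 against control and changed no other call. The missing depth of TPM, the 2 control rats and the 14 groups of 2 muscles limit the precision.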

Other observations

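In 8 libraries of running rats at 28 DPI the title and another label name opposite muscles, so they entered no comparison. They held 21.3 to 59.4 TPM of Dmd (median 40.8), 70.8 to 102.7 TPM of Dag1 (median 86.1), 159 to 183 TPM of Sgca (median 168) and 104.5 to 155 TPM of Sgcb (median 130.8). Sgcd held 17.8 to 29.5 TPM, Sntb1 7.55 to 22.5 TPM and Sspn 31.3 to 58.8 TPM. These ranges and medians pool both muscles. Libraries titled Inj held 21.3 to 37.9 TPM of Dmd, with 8707 to 9090 symbols above 1 TPM. Those titled Ctrl held 43.6 to 59.4 TPM of Dmd, with 9820 to 10161 symbols. In Sgcb they overlapped, at 119.1 to 155.0 and 104.5 to 132.2 TPM. A further library of rat 011 carries conflicting days and held 31.7 TPM of Dmd and 130.2 TPM of Sgcb.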
